A study of Mus musculus with 9 samples.

Results

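The heat shock genes are the 10 chaperone genes Hspa1a, Hspa1b, Hspa8, Hsp90aa1, Hsp90ab1, Dnajb1, Hsph1, Hspb1, Hspe1 and Hspd1, of 41128 genes in the count table of a mouse lymphoma RNA sequencing experiment. They were found by gene symbol. The set was chosen from the levels of these genes in the same libraries and from the relation of Hspa1a to Fos, so the spread of Hspa1a over tumors and its likeness to Fos are given as descriptions with no test.

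Lymphoma cells came from lymph nodes of mice. All mice carried the IµBcl6 transgene, which keeps the germinal center repressor Bcl6 on in B cells, and a Cγ1 wt/cre allele, which turns on Cre in B cells as they start a germinal center reaction. The 3 Bcl6 tumors were Smc3 wt/wt, and the 6 Smc3/Bcl6 tumors were Smc3 wt/-, with 1 copy of the gene for a core cohesin subunit targeted by that Cre. The labels give no ages. They place the first tumor of each genotype in the mesenteric lymph node and the other 7 in a lymph node, while the methods of the study speak of mesenteric lymph nodes for both genotypes. The labels do not say that each tumor came from a separate animal, so p-values measure the spread between these samples.

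Heat shock proteins bind unfolded or partly folded proteins and help them to fold, to be moved or to be degraded. In unstressed cells, Hsf1, the main heat shock transcription factor, is held inactive. Heat or proteotoxic stress releases it, and Hsf1 trimers then bind heat shock elements, arrays of the unit GAA in alternating orientation, and switch on the inducible genes within minutes. The constitutive members Hspa8 and Hsp90ab1 are made in all cells, while Hspd1 and Hspe1 encode the mitochondrial chaperonin and its cochaperonin lid.

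Library totals ran from 10156728 to 17774577 counts. The second Smc3/Bcl6 tumor stood apart: its counts relative to the other libraries fell with exon length, with a Spearman correlation of -0.47 over genes against -0.03 to 0.27 in the other 8, and results that rest on it are given with and without it. Its library scaling factor (TMM) was 0.693, against 0.964 to 1.10 in the other 8, which raises its CPM relative to total counts. Smc3 itself ran from 88.1 to 126 CPM (counts scaled to a library of 1000000) in Bcl6 and from 27.9 to 111 in Smc3/Bcl6 tumors, where only the second tumor lay below all Bcl6 tumors (log2 fold change -0.19, SE 0.38, not past the genotype thresholds). Genotypes here are therefore those of the labels. The study reports lower Smc3 mRNA in Smc3/Bcl6 than in Bcl6 tumors by quantitative RT-PCR, a separate measurement. The 5 B cell markers Cd79a, Cd79b, Ms4a1, Pax5 and Cd22 were detected in every tumor, with a summed level of 2073 to 6220 CPM in Bcl6 and 3412 to 7718 CPM in Smc3/Bcl6 tumors. The libraries are bulk samples, so fewer cells with a transcript and less transcript per cell cannot be told apart.

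The stretches upstream of these genes were examined for heat shock elements. RefSeq promoter entries on GRCm38.p6 matched 7 of the 10 genes, and Hspa8, Hsp90aa1 and Hsp90ab1 had none. Both strands of the 250 bases before each start site were searched for a pair of GAA units in opposite orientation, GAANNTTC or TTCNNGAA. Of the 10 entries of these 7 genes, 7 held such a pair, beside 12.8% of 32851 promoters of the same length. Not all of them are separate stretches. The Hsph1 entries overlap and hold the same pair, the Hspa1a and Hspa1b windows are near copies, and Hspd1 and Hspe1 share theirs. The entries without a pair were both of Dnajb1 and the second of Hspd1. The windows below are chosen to show the pair of Hspa1a and those of the other genes with a match, each 5′ to 3′ on the gene's strand and ending at the base before its start site, with matched letters in capitals. Hspa1a lies at chr17:34972157-34972406, minus strand, Hspe1 at chr1:55088028-55088147, plus strand, Hsph1 at chr5:149636316-149636415, minus strand, and Hspb1 at chr5:135887779-135887918, plus strand.
Hspa1a: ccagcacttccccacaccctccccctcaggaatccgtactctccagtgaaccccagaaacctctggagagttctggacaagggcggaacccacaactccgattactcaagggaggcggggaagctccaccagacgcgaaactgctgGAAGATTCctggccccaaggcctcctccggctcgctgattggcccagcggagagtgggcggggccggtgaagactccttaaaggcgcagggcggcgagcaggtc
Hspe1: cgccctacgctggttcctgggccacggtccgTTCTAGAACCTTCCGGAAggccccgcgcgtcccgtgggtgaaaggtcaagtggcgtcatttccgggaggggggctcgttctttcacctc
Hsph1: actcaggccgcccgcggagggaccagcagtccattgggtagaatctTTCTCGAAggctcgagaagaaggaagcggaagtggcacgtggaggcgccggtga
Hspb1: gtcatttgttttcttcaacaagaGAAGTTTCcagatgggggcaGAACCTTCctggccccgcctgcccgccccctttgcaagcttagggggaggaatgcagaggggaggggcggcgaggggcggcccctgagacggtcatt

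The Hspa1a window held a single pair that began 104 bases before the start site. The Hspa1b window, at chr17:34959239-34959488, minus strand, held the same pair at the same distance and differed from that of Hspa1a at 3 of 250 positions, C44T, T47C and T249G, counted from 1 at the 5′ end with the Hspa1a base first. Hspe1 had a run of 18 matched letters. It held at least 3 alternating units (GAANNTTCNNGAA or TTCNNGAANNTTC), an arrangement found in 0.466% of promoters, and Hspd1 shares this stretch on the opposite strand because both genes start from it. A match is a description of the letters and not a measurement of binding.

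Hspa1a and Hspa1b encode the stress-inducible cytosolic Hsp70 proteins and had the widest spread of the 10 genes. Hspa1a (ENSMUSG00000091971, chr17:34969190-34972156) was measured at 123, 26.2 and 45.1 CPM in the Bcl6 tumors numbered 1 to 3, and at 73.8, 0.741, 9.92, 188, 6.63 and 5.33 CPM in Smc3/Bcl6 tumors 1 to 6. The fourth Smc3/Bcl6 tumor was the highest of all and the second the lowest, and 4 of 6 Smc3/Bcl6 tumors lay below every Bcl6 tumor. The lowest value rests on 7 counts, with an exact Poisson 95% interval of 0.298 to 1.53 CPM that covers counting error only. Hspa1b (ENSMUSG00000090877, chr17:34956436-34959238) was measured at 514, 118 and 157 CPM in Bcl6 tumors and at 269, 0.952, 50.7, 744, 40.3 and 49.4 CPM in Smc3/Bcl6 tumors. It put the tumors in nearly the same order, and again 1 Smc3/Bcl6 tumor lay above and 4 lay below all Bcl6 tumors.

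From the lowest to the highest tumor, Hspa1a differed 254-fold and Hspa1b 781-fold. Without the second Smc3/Bcl6 tumor the spans were 35.3-fold and 18.5-fold. The SD of log2 CPM over 9 tumors was 2.49 for Hspa1a and 2.79 for Hspa1b, at the 98.7th and 99.4th percentile of all tested genes, whose median was 0.63. Without the second Smc3/Bcl6 tumor it was 1.94 for Hspa1a and 1.60 for Hspa1b, at the 95.8th and 92.1st percentile. The neighbouring copies share most of their sequence: 58.8% of all 50-base windows of the Hspa1a transcript are found in Hspa1b, and 62.3% of those of Hspa1b in Hspa1a, while none of the Hspa1a windows is found in Hspa8. How reads from shared stretches were divided is not given in the sources used here, so the split between the copies is uncertain. Hspa1b had 1.29 to 9.28 counts per Hspa1a count over the tumors. An annotated gene on the opposite strand, Gm20481, covers 19.0% of Hspa1a exon bases and had 0 counts in all libraries.

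**Figure D1:**
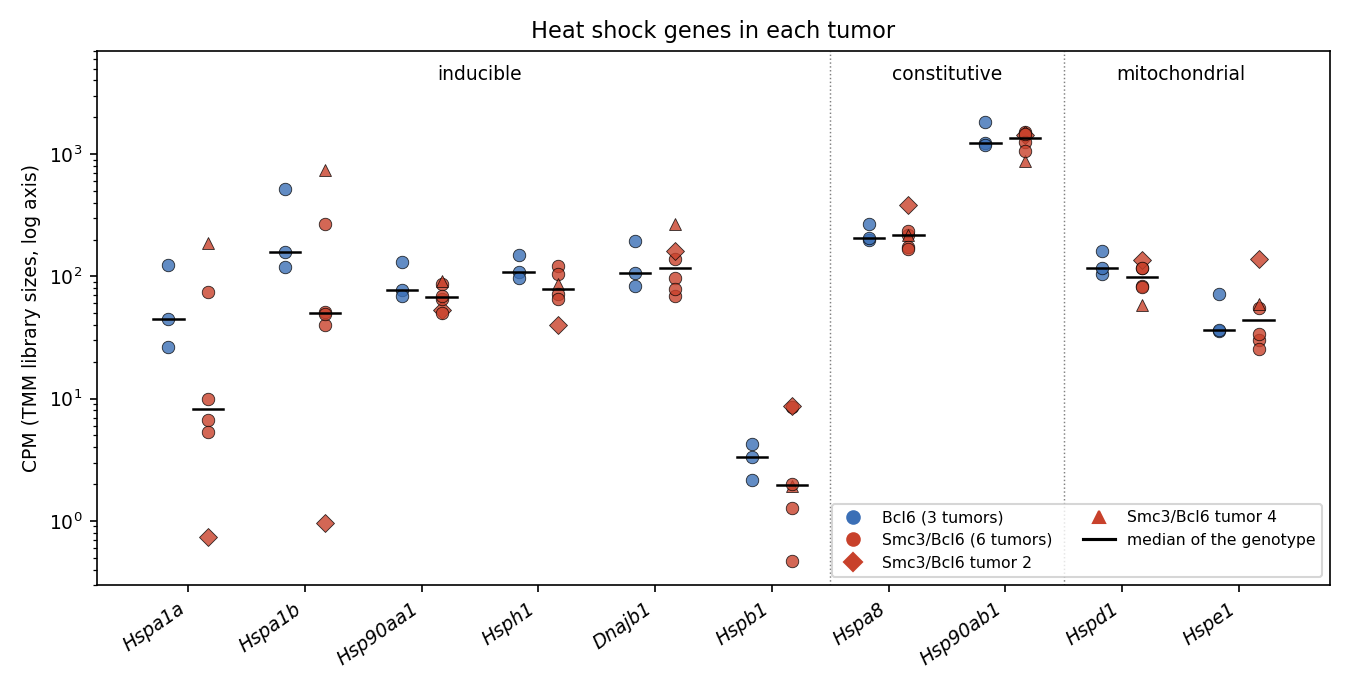
CPM of each heat shock gene on a log axis, with 1 point per tumor, Bcl6 tumors in blue, Smc3/Bcl6 tumors in red and a bar at the median of each genotype. Hspa1a and Hspa1b spread over 254-fold and 781-fold between tumors, Hsp90ab1 over 2.06-fold, and the second Smc3/Bcl6 tumor (diamond) is lowest for the Hspa1 pair and Hsph1 but highest for Hspa8 and Hspe1. Its place for Hspa8 rests on the scaling factor of that library.

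The other inducible genes varied less. Hsp90aa1, the inducible cytosolic Hsp90 (ENSMUSG00000021270), was measured at 132, 77.7 and 69.7 CPM in Bcl6 tumors and at 86.4, 52.9, 65.1, 91.6, 69.5 and 50.2 CPM in Smc3/Bcl6 tumors. Its highest Smc3/Bcl6 tumor was again the fourth, inside the range of the Bcl6 tumors. Hsph1, an Hsp110 that exchanges the nucleotide of Hsp70 (ENSMUSG00000029657), was measured at 148, 108 and 96.8 CPM in Bcl6 tumors and at 121.8, 39.7, 104.5, 87.2, 71.4 and 65.6 CPM in Smc3/Bcl6 tumors. For both genes 4 of 6 Smc3/Bcl6 tumors lay below every Bcl6 tumor and none lay above them. Dnajb1, the J-domain partner that delivers clients to Hsp70 (ENSMUSG00000005483), was measured at 194, 106 and 83.6 CPM in Bcl6 tumors and at 138, 161, 96.1, 266, 69.3 and 79.2 CPM in Smc3/Bcl6 tumors. The fourth Smc3/Bcl6 tumor was the highest here as well, but the second stood in place 3 and not the lowest. Hspb1, a small heat shock protein that holds unfolded proteins without ATP (ENSMUSG00000004951), was scarce, with 412 counts over all libraries and 0.470 to 8.68 CPM, and its 2 highest tumors were the first and the second of Smc3/Bcl6.

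The constitutive genes were the most even. Hspa8, the constitutive Hsp70 (ENSMUSG00000015656), was measured at 269, 197 and 206 CPM in Bcl6 tumors and at 218, 383, 234, 217, 173 and 169 CPM in Smc3/Bcl6 tumors, where the second tumor was the highest and the rest lay within 1.59-fold together with the Bcl6 tumors. The place of the second Smc3/Bcl6 tumor rests on its scaling factor. It had 3617 Hspa8 counts of 13659607 in total, and Bcl6 tumor 1 had 3050 of 11121788, a higher share. Hsp90ab1, the constitutive Hsp90 (ENSMUSG00000023944), was measured at 1820, 1238 and 1185 CPM in Bcl6 tumors and at 1528, 1442, 1264, 885, 1450 and 1056 CPM in Smc3/Bcl6 tumors. Its lowest tumor was the fourth of Smc3/Bcl6, the tumor with the most Hspa1a. The SD of log2 CPM was 0.36 for Hspa8 and 0.31 for Hsp90ab1, at the 18.5th and 12.8th percentile of tested genes.

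Of the mitochondrial pair, Hspd1 (Hsp60, ENSMUSG00000025980) ran from 104 to 160 CPM in Bcl6 and from 57.9 to 135 CPM in Smc3/Bcl6 tumors. Hspe1 (Hsp10, ENSMUSG00000073676) was measured at 72.1, 35.7 and 36.1 CPM in Bcl6 tumors and at 55.2, 138, 30.4, 59.7, 33.5 and 25.5 CPM in Smc3/Bcl6 tumors. In CPM, Hspe1 was highest in the second Smc3/Bcl6 tumor, as was Hspa8, whose place there rests on the scaling factor. Their exon lengths are 1474 and 4301 bases, and the part of the length trend of that library in these values was not tested. Although the genes share their upstream stretch, their log2 CPM correlated at r = 0.38 over 9 tumors and 0.22 without that tumor. Their exons overlap by 112 bases on opposite strands, and whether counting used the strand is not given in the sources used here.

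Per length, as CPM per kilobase of exon (RPKM), Hsp90ab1 was the most abundant of the 10, at 440 ± 92.2 (SD, n = 9), and its lowest tumor, at 295 RPKM, lay above the highest tumor of every other member. Hspa1b followed at 77.1 ± 90.6, then Hspa8 at 53.3 ± 15.1, Dnajb1 at 41.4 ± 20.2, Hspd1 at 40.9 ± 11.7 and Hspe1 at 36.6 ± 23.8 RPKM. Below these stood Hsp90aa1 at 19.6 ± 6.28, Hspa1a at 17.9 ± 21.8, Hsph1 at 12.9 ± 4.45 and Hspb1 at 3.51 ± 2.94 RPKM. Neighbours in this order differed by less than the larger of their SDs, except Hsp90ab1 against Hspa1b and Hsph1 against Hspb1. These SDs are over tumors, so they do not say whether neighbours differ within each tumor. In the fourth Smc3/Bcl6 tumor Hspa1b, at 265 RPKM, came close to Hsp90ab1, at 295 RPKM.

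Counts of inducible genes per count of their constitutive partner depend little on the scaling of a library. A prior count of 2, scaled by library size, was added to both terms of each ratio. It matters most in the second Smc3/Bcl6 tumor, with 7 counts of Hspa1a and 9 of Hspa1b. Hspa1a and Hspa1b together had 2.37, 0.733 and 0.983 counts per Hspa8 count in Bcl6 tumors and 1.58, 0.00479, 0.260, 4.29, 0.272 and 0.325 in Smc3/Bcl6 tumors. Bcl6 tumor 1 and Smc3/Bcl6 tumors 1 and 4 thus had more counts of the inducible genes than of Hspa8, and the other 6 had fewer. On the log2 scale this ratio was 0.26 ± 0.88 (SD, n = 3) in Bcl6 and -1.73 ± 3.35 (SD, n = 6) in Smc3/Bcl6 tumors, a difference of -1.99 that is smaller than the pooled SD of 2.87. It was -0.79 without the second and -2.76 without the fourth Smc3/Bcl6 tumor. Hsp90aa1 per Hsp90ab1 count ran from 0.0589 to 0.0726 in Bcl6 and from 0.0368 to 0.104 in Smc3/Bcl6 tumors, with a log2 difference of -0.25 against a pooled SD of 0.43. This difference was -0.14 without the second and -0.44 without the fourth Smc3/Bcl6 tumor. Those SDs are unpaired; in each of the 3 same-numbered pairs both ratios were lower in the Smc3/Bcl6 tumor. Both ratios were highest in the fourth and lowest in the second Smc3/Bcl6 tumor. They correlated with Hspa1a at r = 0.95 and 0.91 over 9 tumors. The first r is high by construction, since Hspa1a is part of that ratio and Hspa8 varied little. Both r include the second Smc3/Bcl6 tumor and are not given without it.

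**Figure D2:**
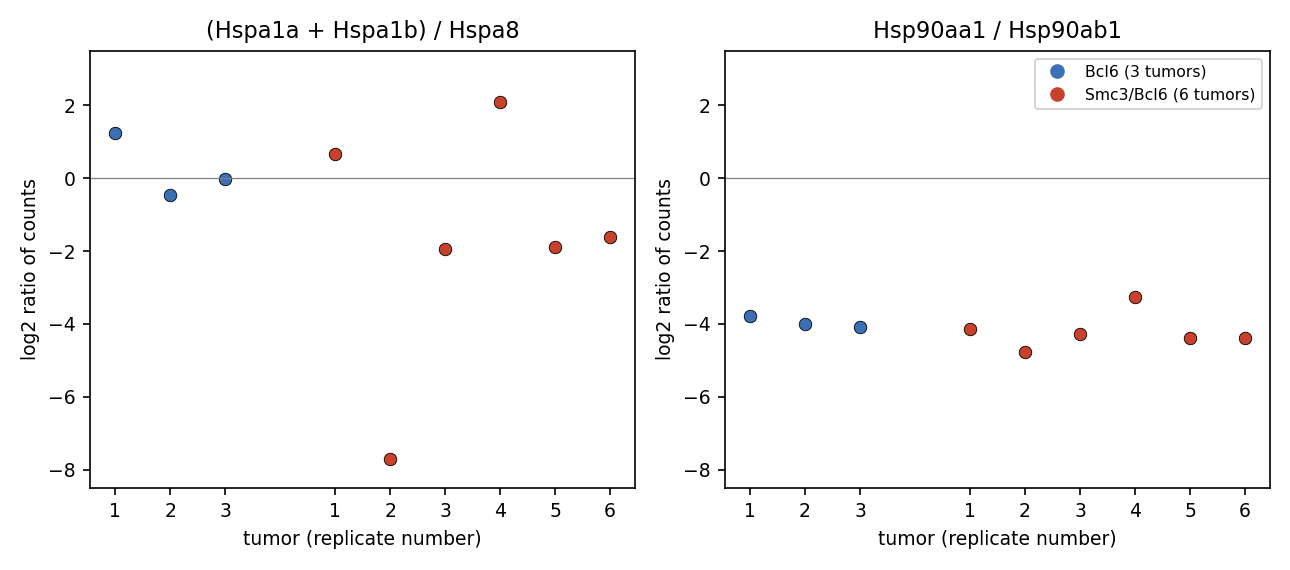
Log2 ratio of the counts of inducible to constitutive Hsp70 genes (left) and Hsp90 genes (right) in each tumor, Bcl6 in blue and Smc3/Bcl6 in red. A scaled prior count of 2 was added to both terms, with no correction for length, and the vertical scale is the same. The Hsp70 ratio runs from -7.70 to 2.10 and the Hsp90 ratio from -4.76 to -3.27, with the second Smc3/Bcl6 tumor lowest and the fourth highest in both.

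Fos encodes a subunit of the AP-1 transcription factor and is an immediate early gene, a class transcribed within minutes of a stimulus without new protein. It was measured at 416, 146 and 178 CPM in Bcl6 tumors and at 257, 8.78, 32.0, 1457, 50.6 and 19.8 CPM in Smc3/Bcl6 tumors. The tumors with the most Fos were those with the most Hspa1a, and the second Smc3/Bcl6 tumor was lowest for both. Of 14056 other tested genes Fos was the most like Hspa1a in log2 CPM over 9 tumors (r = 0.97, Spearman rho 0.98), which is part of why the set was selected. The correlation was 0.97 without the 2 tumors farthest from the Fos median (n = 7), 0.97 within Smc3/Bcl6 tumors (n = 6) and 0.97 among the tumors labelled lymph node (n = 7), while the mesenteric label holds only 2 tumors. Both genes come from the same libraries, so their values share any property of a library.

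**Figure D3:**
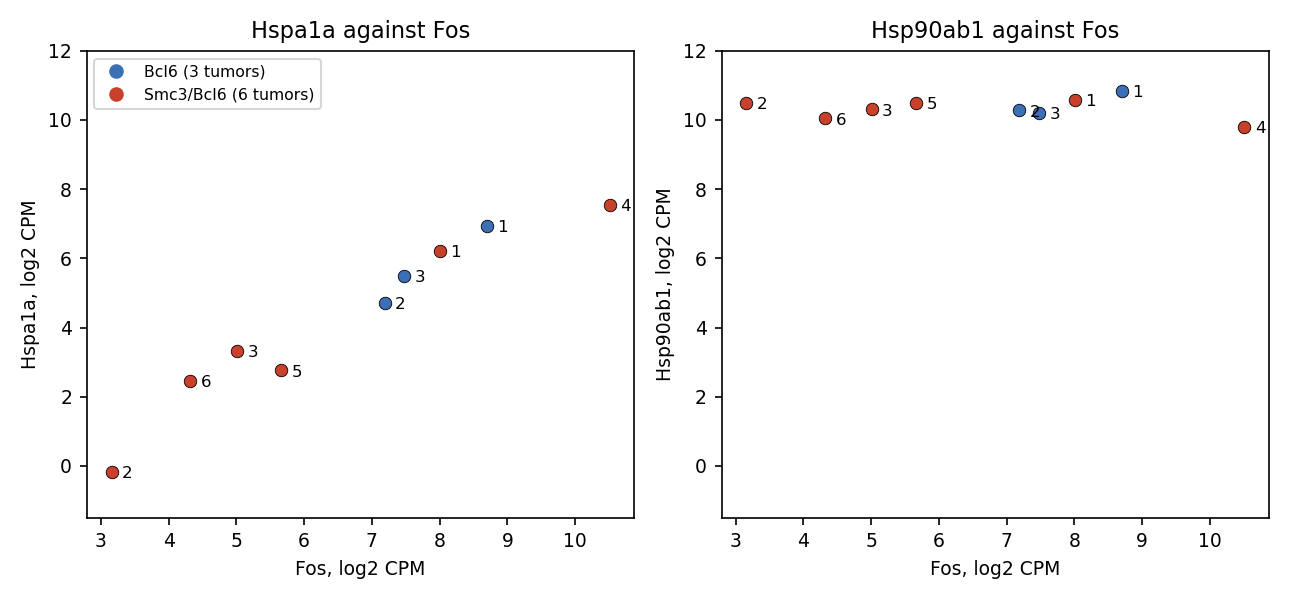
Log2 CPM of Hspa1a (left) and of the constitutive Hsp90ab1 (right) against log2 CPM of Fos, with 1 numbered point per tumor, Bcl6 in blue and Smc3/Bcl6 in red. Hspa1a goes up with Fos over all 9 tumors (r = 0.97), with Bcl6 tumors amid the Smc3/Bcl6 tumors, while Hsp90ab1 stays between 885 and 1820 CPM.

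Within the heat shock genes, likeness to Hspa1a depended on the second Smc3/Bcl6 tumor. Over 9 tumors Hspa1b (r = 0.96), Hsp90aa1 (0.84) and Hsph1 (0.83) were above 0.8, Dnajb1 was at 0.46, and Hspb1, Hspe1, Hsp90ab1, Hspd1 and Hspa8 lay between -0.27 and 0.02. Without that tumor Hspa1b stood at 0.99, Hspe1 at 0.92, Dnajb1 at 0.88, Hsp90aa1 at 0.82, Hspa8 at 0.69, Hsph1 at 0.64 and Hspb1 at 0.59, while Hspd1 at 0.12 and Hsp90ab1 at 0.05 were near the median of all genes, 0.03. Fos stood at 0.97 in both. Over all tested genes the 5th to 95th percentile of r with Hspa1a was -0.70 to 0.76 over 9 tumors and -0.58 to 0.63 over 8. The median r of the 9 other heat shock genes moved from 0.02 to 0.69. Hspe1 shifted from -0.09 to 0.92 by leaving out this 1 library, the library in which it was highest.

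**Figure D4:**
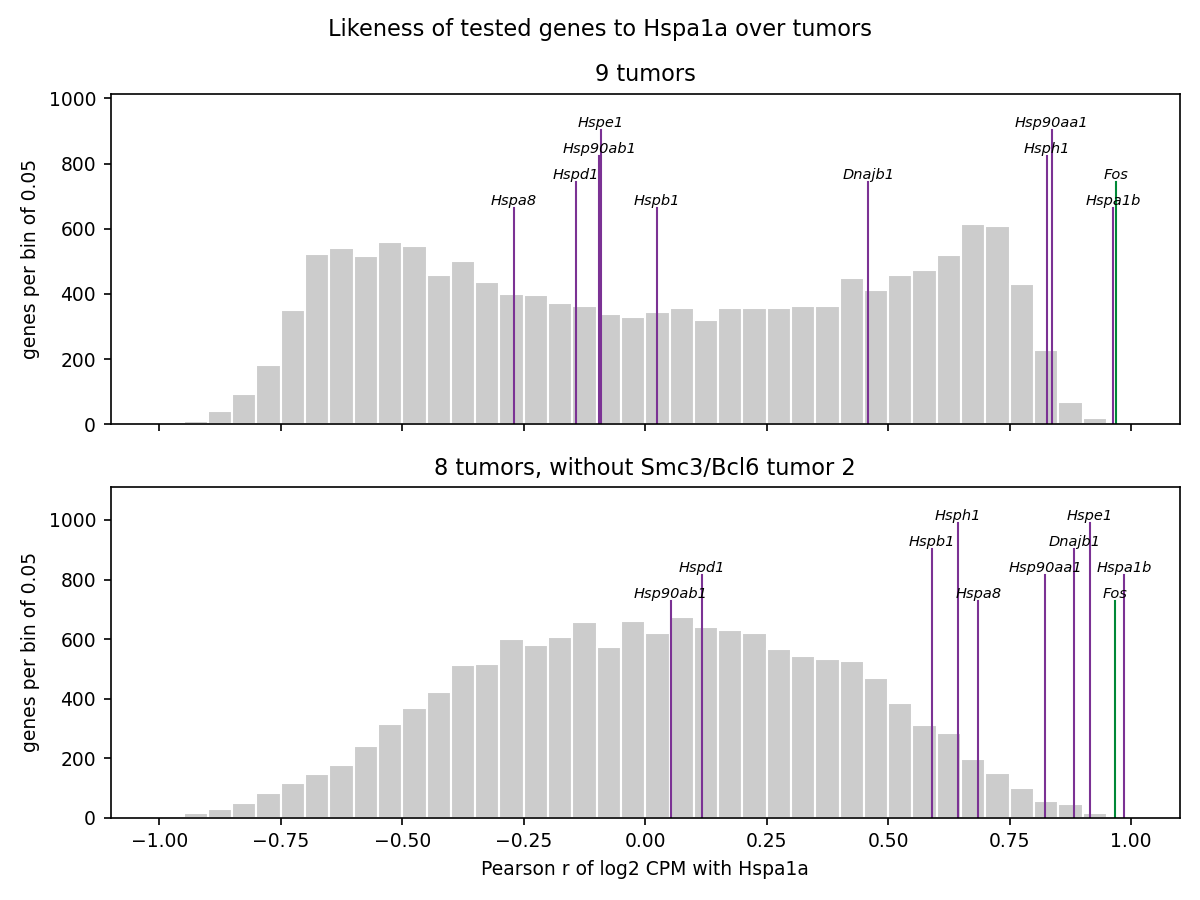
Number of tested genes by their Pearson correlation of log2 CPM with Hspa1a (grey, bins of 0.05) over 9 tumors (top) and over the 8 without the second Smc3/Bcl6 tumor (bottom), with the other heat shock genes (purple) and Fos (green) marked. Hspa1b and Fos stay at 0.96 or above in both, while Hspe1 moves from -0.09 to 0.92 and Dnajb1 from 0.46 to 0.88.

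The genes nearest to Hspa1a over 9 tumors were Fos, Hspa1b, Tulp2, Spata5, Gm8818, Snora31, Jun, Trp53inp2, Cdh24 and Gm10382, with r from 0.93 to 0.97. Over the 8 tumors they were Hspa1b, Fos, 4930524O07Rik, Hist1h2bp, Rad17, Parg, Tulp2, 1110020A21Rik, Whsc1l1 and Gpbp1, with r from 0.92 to 0.99. Of these, 3 genes were in both lists: Hspa1b, Fos and Tulp2. Several are scarce, among them Cdh24 with 80 counts and Hist1h2bp with 75 counts over all libraries, and a high r among so many genes over so few tumors is weak as a description of any of them. Jun, the AP-1 partner of Fos, was measured at 572, 252 and 201 CPM in Bcl6 tumors and at 410, 34.7, 121.5, 1733, 174 and 146 CPM in Smc3/Bcl6 tumors, with the same highest and lowest tumor as Hspa1a.

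Other immediate early genes were not uniformly like Hspa1a. Of 26 listed, 23 were tested, and 17 had a positive r, with a median of 0.36 over 9 tumors and 0.50 over 8. Fosb stood at 0.93, Zfp36, whose protein destabilizes AU-rich mRNAs, at 0.87, Dusp1, a MAP kinase phosphatase, at 0.81 and Egr1 at 0.78 over 9 tumors, whereas Socs3, a feedback inhibitor of cytokine signaling, stood at -0.43. Fos and Fosb had the largest SD of log2 CPM in this list, 2.32 and 2.36, and Btg2 and Ier5 the smallest, 0.42 and 0.70. Btg2 ran from 226 to 322 CPM in Bcl6 and from 195 to 519 CPM in Smc3/Bcl6 tumors.

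The rest of the chaperone network showed less likeness to Hspa1a. Hsf1, the factor that binds heat shock elements, was measured at 93.7, 75.4 and 69.9 CPM in Bcl6 tumors and at 87.8, 97.4, 74.5, 102.4, 58.0 and 66.6 CPM in Smc3/Bcl6 tumors. Its mRNA was highest in the fourth Smc3/Bcl6 tumor, and its r with Hspa1a was 0.32 over 9 tumors and 0.89 over 8, the highest over 8 of the 63 other chaperone, cochaperone and HSF genes tested. Over 9 tumors that place belonged to Bag4, an Hsp70 nucleotide exchange factor (0.81). The 63 genes had a median r of -0.25 over 9 tumors and 0.04 over 8, against 0.02 and 0.69 for the heat shock genes. The heat shock genes were listed with these data known and include Hspa1b, which shares most of its sequence with Hspa1a. By class, the median over 9 tumors ran from -0.52 (Hsp70 cochaperones) to 0.49 (other Hsp70 and Hsp110 genes). The latter class and the Hsp90 cochaperones, at 0.11, lay above the 0.02 of the heat shock genes. Over 8 tumors it ran from -0.21 (small heat shock proteins) to 0.32 (Hsp90 cochaperones), with the other Hsp70 and Hsp110 genes at 0.04. The median SD of log2 CPM of the 63 genes was 0.42, against 0.61 for the heat shock genes and 0.63 for all tested genes.

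The most and the least variable genes of each class, chosen by that spread, are given as a description. Of the Hsp70 and Hsp110 family, Hspa12a (SD of log2 CPM 1.28) and Hspa4l (0.74) varied most and Hspa9, the mitochondrial Hsp70 (0.21), and Hspa4 (0.31) least. Of the J-domain proteins Dnaja4 (0.85) and Dnajb2 (0.78) varied most and Dnajc5 (0.15) and Dnaja3 (0.24) least. Among Hsp70 cochaperones Bag2 (0.94) and Bag3 (0.75) stood against Bag6 (0.15) and Bag4 (0.21). Bag3, itself a known Hsf1 target, had an r with Hspa1a of -0.24 over 9 tumors and -0.45 over 8. Hsp90 cochaperones ranged from Fkbp5 (1.11), a glucocorticoid-induced gene, and Fnip1 (0.84) to Cdc37l1 (0.26) and Ppp5c (0.24). The small heat shock proteins Hspb3 (1.83) and Cryab (1.30) were at or below 9.02 CPM in every tumor, and Hspb11 (0.42) and Hspb6 (0.27) varied least in that class. In the cytosolic chaperonin TRiC, Cct5 (0.70) and Cct6b (0.58) varied most and Cct4 (0.42) and Cct6a (0.37) least. Of the HSF list, Hsf4 (0.79) and Hsf2 (0.59) varied most and Hsbp1 (0.46) and Hsf1 (0.28) least.

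The genotype comparison asked whether loss of 1 Smc3 copy moved these genes. In an edgeR quasi-likelihood fit over 9 tumors, with the thresholds of the study (unadjusted p under 0.1 and an absolute log2 fold change over 0.56), 302 of 14057 genes passed (2.15%), 180 higher and 122 lower in Smc3/Bcl6 tumors, and 0 genes had an adjusted p under 0.05. Scaling to total counts without TMM turned this split to 108 higher and 175 lower. None of the 10 heat shock genes passed, and DESeq2, with 3.15% of all genes past the thresholds, called 0 of them as well. The smallest of their p-values was 0.145 with edgeR, so 0 had an unadjusted p under 0.05, beside 79 of all 14057 tested genes. The genotypes overlapped for all 10, a count without the share over all tested genes and so no result about these 10 genes. Their log2 fold changes, Smc3/Bcl6 minus Bcl6, ran from -0.53 to 0.25 with a median of -0.26, and 6 of 10 were negative, beside a median of 0.06 and 42.6% negative over all tested genes.

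The fold changes of Hspa1a and Hspa1b had wide errors in this fit. Hspa1a had a log2 fold change of -0.45 (SE 1.32) and Hspa1b of -0.45 (SE 1.31), each with an edgeR adjusted p = 1.00, with means of 64.8 ± 51.4 and 47.4 ± 74.1 CPM for Hspa1a in Bcl6 (SD, n = 3) and Smc3/Bcl6 tumors (SD, n = 6). Medians lay further apart, at 45.1 CPM and 8.28 CPM, since the fourth Smc3/Bcl6 tumor carries most of the Smc3/Bcl6 mean. Without that tumor the log2 fold change of Hspa1a was -1.73 (SE 1.13) and that of Fos -1.73 (SE 0.95), against 0.30 (SE 1.42) for Fos with it, and neither passed the thresholds. Without the first Bcl6 tumor Hspa1a was at 0.32 and Hspa1b at 0.40. The sign and size thus rest on single tumors.

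Hsph1 had a log2 fold change of -0.53 (SE 0.33), Hsp90aa1 of -0.43 (SE 0.29) and Hspd1 of -0.37 (SE 0.30). These had the smallest edgeR p-values of the heat shock genes, 0.145, 0.171 and 0.246. Hsph1 passed the thresholds when the first Smc3/Bcl6 tumor was left out (-0.68), as did 2.5% of all genes. The constitutive Hspa8 at 0.05 (SE 0.30) and Hsp90ab1 at -0.15 (SE 0.29) were close to 0, as was Dnajb1 at 0.07 (SE 0.46). Hspe1 at 0.25 (SE 0.54) was at -0.21 without the second Smc3/Bcl6 tumor. Hspb1 at 0.23 (SE 0.86) was at -0.18 without the first or without the second Smc3/Bcl6 tumor, its highest, and at -0.03 without the second Bcl6 tumor.

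Pairing tumors by replicate number gave another picture for the Hspa1 genes. Numbers 1 to 3 occur in both genotypes, and the deviations of same-numbered tumors from their genotype means correlated at r = 0.44, 0.11 and 0.16. Differently numbered tumors were not compared, so whether the number marks a real block is not known. A fit of these 6 tumors with the number as a block is given beside the first. In all 3 pairs Hspa1a and Hspa1b were lower in the Smc3/Bcl6 tumor, and both passed the thresholds: Hspa1a at -2.48 (SE 0.87) and Hspa1b at -2.64 (SE 1.22). The other 8 heat shock genes did not pass. In this fit 299 of 13360 genes passed (2.24%), 254 of them lower (1.9%), the smallest adjusted p among the heat shock genes was 0.983, and over all settings that of Hspa1a ran from 0.566 to 1.00. Fos also passed, at -2.44 (SE 0.73), as did Jun (-1.35), Dusp1 (-1.66), Zfp36 (-1.02), Nr4a1 (-0.80) and Nr4a2 (-1.22). A fit of pairs 1 and 3 alone, which leaves out the second tumor of each genotype, was chosen after seeing the data. In it Hspa1a at -1.46 (SE 0.46), Hspa1b at -1.29 (SE 0.29) and Fos at -1.59 (SE 0.54) passed the thresholds, beside 1.74% of all genes. It reuses tumors of the blocked fit, so it is not separate support. Pair 1 is also the pair labelled mesenteric, and with the tissue label as a term over 9 tumors Hspa1a was at -0.016 and Hspa1b at 0.023. The block leaves out Smc3/Bcl6 tumors 4 to 6, among them the tumor with the highest Hspa1a.

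**Figure D5:**
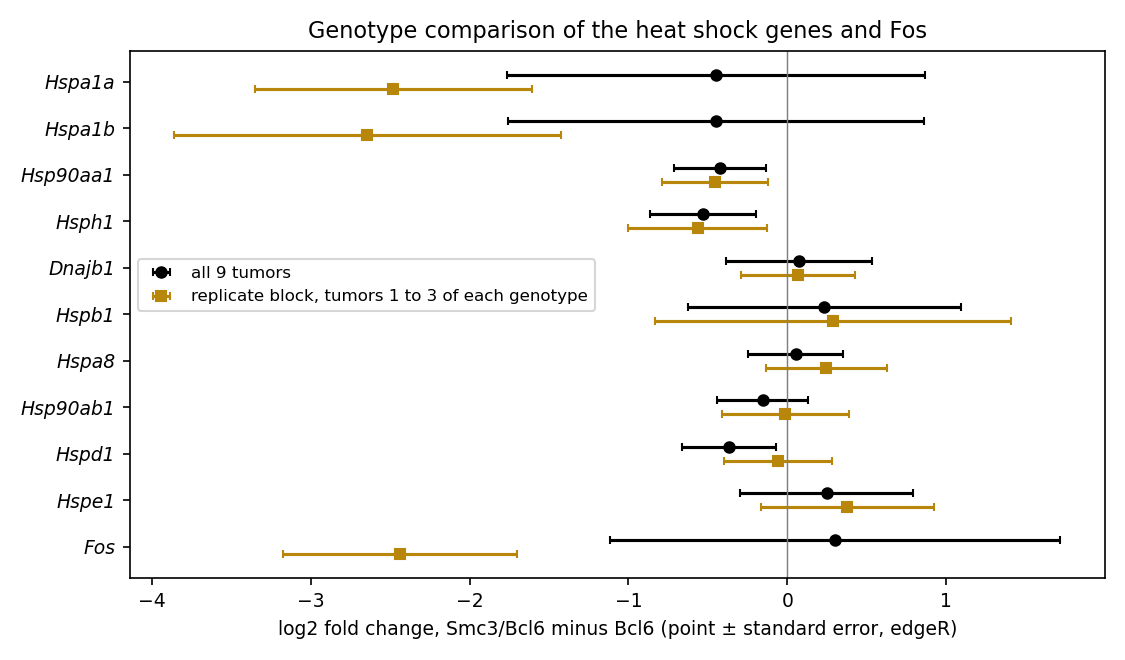
Log2 fold change of Smc3/Bcl6 minus Bcl6 for each heat shock gene and Fos, from all 9 tumors (black) and from 6 tumors blocked on the replicate number (gold). Bars are standard errors derived from the edgeR F statistic. Hspa1a, Hspa1b and Fos lie at -2.48, -2.64 and -2.44 in the blocked fit and at -0.45, -0.45 and 0.30 in the fit of all tumors, while the other 8 genes differ between fits by less than the standard error of the blocked fit.

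Of 71 other chaperone, cochaperone and HSF genes listed, 63 were tested and 0 passed the thresholds with edgeR or DESeq2, beside 2.15% and 3.15% of all tested genes. Their median log2 fold change was 0.00 with 32 of 63 negative, the range was -1.99 (Hspb3) to 0.70 (Fkbp5), and the smallest p was 0.156. None of the 23 immediate early genes passed over 9 tumors.

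Markers of other cells varied between tumors, and their part in these results was not tested. Summed macrophage markers (7 of 7 detected) ran from 402 to 7727 CPM in Bcl6 and from 263 to 8339 CPM in Smc3/Bcl6 tumors, with an r with Hspa1a of -0.55 over 9 tumors. T cell markers (6 of 6) ran from 217 to 1888 and from 67.1 to 2219 CPM (r = -0.47). Neutrophil markers (6 of 6, with Ltf and Mmp8 at 0 in some tumor) ran from 18.3 to 1585 and from 7.74 to 867 CPM (r = 0.44). Endothelial markers (6 of 6, Tek at 0 in some tumor) ran from 103 to 119 and from 28.3 to 340 CPM (r = 0.72 for the sum, while the 5 tested genes had a median r of 0.10 and 3 were positive), and stromal markers (6 of 6, Col3a1 and Pdgfra at 0 in some tumor) up to 37.9 and from 4.16 to 63.0 CPM (r = -0.34). Erythroid markers (4 of 6 found) ran from 6.26 to 97.2 and from 8.04 to 1585 CPM (r = -0.09), and 3 of the 4 passed the thresholds as higher in Smc3/Bcl6 tumors. Plasma cell markers (5 of 6, Tnfrsf17 at 0 in some tumor) ran from 474 to 775 and from 522 to 1462 CPM (r = -0.58, and -0.09 without the second Smc3/Bcl6 tumor, which held 1462 CPM). B cell markers had r = 0.37. Without that tumor the r values were -0.49 for macrophage, -0.29 for T cell, 0.60 for neutrophil, 0.55 for endothelial, -0.45 for stromal, 0.08 for erythroid and 0.48 for B cell markers. The log2 total count had r = -0.13 with Hspa1a, and the trend of counts with exon length had r = 0.62 over 9 tumors and -0.05 without the second Smc3/Bcl6 tumor.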

How the data were processed

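Gene counts of 9 tumor libraries were analysed. Per the labels and the study's methods, the authors made mRNA libraries with a TruSeq RNA kit, aligned reads to mm10 with STAR, counted them per Gencode M12 gene with featureCounts in the nf-core/rnaseq pipeline and deposited raw counts in 1 table of 41128 genes. The submitters' processing notes name R 4.0.2 and DESeq2 1.28.1. Read length, strand and the treatment of multi-mapped reads are not given in the sources used here.

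From the counts, edgeR 4.0.16 (R 4.3.3, limma 3.58.1) with TMM scaling and its expression filter tested 14057 genes, Smc3/Bcl6 against Bcl6, with a quasi-likelihood test and Benjamini-Hochberg adjustment over all tested genes. All 10 heat shock genes passed the filter. The SE of an edgeR log2 fold change was derived as its absolute value over the square root of the F statistic. DESeq2 1.42.0 was an alternative. CPM use TMM library sizes and log2 CPM a prior count of 2. RPKM use exon union lengths of GENCODE release 21 (GRCm38), which holds 97.9% of the IDs. Correlations are over tumors and have no p-value. The scripts were tested on simulated data. Library totals of 10156728 to 17774577 limit precision for scarce genes such as Hspb1.

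Deviations of same-numbered tumors from their group means correlated at r = 0.44, 0.11 and 0.16 for numbers 1, 2 and 3. The blocked fit is therefore reported where it changes a result, although differently numbered tumors were not compared. The labels do not say what a number marks. Another 16 settings were tried, and a block over pairs 1 and 3 was chosen after seeing the data. The members and lists were chosen with earlier results of these data known. Named genes are the 10 members and Fos, genes of the chaperone and immediate early lists past the thresholds, the 2 most and 2 least variable of each list, and the 10 most like Hspa1a over 9 and over 8 tumors. Egr1, Zfp36, Dusp1 and Socs3 were named after their values were seen, as was Bag3's correlation. A gene of the B cell marker list is not reported here, and the summed level is over the others.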

Additional observations from a re-analysis of the deposited data

How the results depend on the processing

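Limits: Hspa1a and Hspa1b share sequence, 1 library favours short genes, and the labels do not tie tumors to animals. No setting gave an adjusted p under 0.05 for any gene. With another setting, genes passing as higher numbered 342 with DESeq2, 108 without TMM, 576 without a filter on low counts, 642 with limma voom quality weights, 45 with the replicate block over pairs 1 to 3 and 54 over pairs 1 and 3, the last chosen after seeing the data, against 180. Those passing as lower numbered 101 with DESeq2, 175 without TMM, 812 without a filter, 1002 with voom, 192 with the tissue label as a term and 254 with the block, against 122. Leaving out TMM moved the median log2 fold change of all genes from 0.06 to -0.04 and the split from mostly higher to mostly lower. Leaving out 1 tumor at a time gave 84 (without Bcl6 tumor 2) to 339 (without Smc3/Bcl6 tumor 2) higher and 61 (without Smc3/Bcl6 tumor 6) to 321 (without Smc3/Bcl6 tumor 3) lower genes. Without Smc3/Bcl6 tumor 3 there were 303 higher, without tumor 6 there were 98, without tumor 2 there were 194 lower, and without Bcl6 tumor 1 there were 240 lower.

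Heat shock genes past the thresholds numbered 1 with voom (Hspa1a, -1.56), where 11.7% of all genes passed. There were 2 with the block over pairs 1 to 3 and 2 over pairs 1 and 3, beside 2.24% and 1.74% of all genes. With a tumor left out there were 0 to 1 (Hsph1, -0.68), beside 1.15% to 4.51% of all genes. Other chaperone genes past the thresholds numbered 1 without a filter (Hspb7), where 5.25% of all genes passed. They numbered 1 with voom and 1 with the tissue term (both Dnaja4), the latter beside 2.29% of all genes. With a tumor left out they numbered 0 to 2. With the replicate block Hspa1a was at -2.48 over pairs 1 to 3 and -1.46 over pairs 1 and 3, Hspa1b at -2.64 and -1.29, and Fos at -2.44 and -1.59. The block changed no other call among the heat shock genes.

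Signs turned for other genes as follows. Without TMM Hspa8 was at -0.10, Dnajb1 at -0.043 and Hspb1 at -0.0024. With voom Hspa8 was at -0.11, Dnajb1 at -0.15, Hspb1 at -0.51, Hspe1 at -0.19 and Fos at -1.72. With the tissue term Hspa1b was at 0.023. With the block over pairs 1 and 3 Hspa8 was at -0.068, Dnajb1 at -0.16, Hspb1 at -0.80 and Hspe1 at -0.33. With a tumor left out the values spanned -1.73 to 0.32 for Hspa1a, -1.65 to 0.40 for Hspa1b, -0.13 to 0.13 for Hspa8, -0.27 to 0.0040 for Hsp90ab1, -0.24 to 0.43 for Dnajb1, -0.18 to 0.43 for Hspb1, -0.21 to 0.57 for Hspe1 and -1.73 to 0.83 for Fos. Hsp90aa1, Hsph1 (-0.68 to -0.37 with a tumor left out) and Hspd1 kept their sign in all 17 settings. The correlation of Hspa1a with Fos was 0.98 as Spearman's rho and 0.92 for Hspa1a and Hspa1b summed. Apart from the settings that change the samples or the measure, the cause was not tested.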
